A study of Arabidopsis thaliana with 12 samples.

Results

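RING-H2 genes encode ubiquitin ligases, and 10 of them were described here in the leaves and roots of *Arabidopsis thaliana* seedlings grown on the International Space Station (ISS) and on the ground. They are the rows of the deposited leaf and root tables that carry the locus identifiers AT1G49200 (ATL75), AT1G76410 (ATL8), AT2G18670 (ATL56), AT4G30400 (ATL13), AT2G35910 (ATL70), AT3G18773 (ATL77), AT5G27420 (ATL31), AT2G17450 (ATL44), AT2G42350 (ATL40) and AT4G11360 (RHA1B). All 10 are among the 608 genes of the leaf table, and 2 of them, ATL75 and ATL8, are also among the 65 genes of the root table, out of 656 genes listed in either. The plants were Wassilewskija (WS) seedlings, 11 days old at harvest and kept under constant LED light in Veggie hardware, either on the ISS (spaceflight) or in an environmental chamber at Kennedy Space Center (ground control). Each plate of seedlings was a biological replicate, pooled plants of a plate were divided into leaves and roots without the hypocotyl, and this gave 4 groups (leaf or root, on the ground or in spaceflight) of 3 libraries each. The groups differed in environment and organ, and every group was the same wild-type accession. Ground plates also started later. Spaceflight plates were harvested by an astronaut, frozen on the ISS and returned frozen, and ground plates were harvested by a surrogate into a standard freezer. These differences cannot be told apart from environment. Plates of an environment shared the same flight or chamber, so the spread between plates holds no variation between flights or chambers. Root tips are named in the labels and dissected roots in the paper, so it is unsettled how much of the root was taken. One label field names the wrong organ in 2 of the 4 groups, so organs follow the sample titles here. The listed light-harvesting genes summed to 6221 to 17828 FPKM in the leaf libraries of the titles and to 102 to 344 FPKM in the root libraries.

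Ubiquitin ligases of the RING type bring a ubiquitin-loaded conjugating enzyme to a target protein and so mark the target, often for breakdown by the proteasome. The RING is a small fold in which cysteines and histidines hold a pair of zinc ions, and in RING-H2 proteins the central zinc ligands are both histidines. Most members of the Arabidopsis ATL family pair such a RING with a membrane-spanning stretch near the amino terminus, and ATL31, the best studied of these 10, is known for the balance of carbon and nitrogen nutrients and for defence, where it targets 14-3-3 proteins.

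Of the 10 genes, 7 rose in spaceflight leaves, a share near that of all leaf-table genes (58.1%). In roots ATL8 and ATL75 rose over the root table, where 27.7% of the genes did, and over the leaf table ATL75 missed the threshold (adjusted p = 0.0534). RHA1B, ATL75, ATL31, ATL56, ATL77, ATL8 and ATL44 rose in spaceflight leaves by 2.09- to 4.27-fold in mean level, and ATL13 stood lower in every spaceflight leaf library than in every ground control leaf library. In roots ATL75 stood 4.02-fold and ATL8 3.79-fold higher in spaceflight. On the ground RHA1B was higher in roots and ATL75 was higher in leaves. ATL70 and ATL40 were higher in roots too, but they entered the tables through their root libraries, so this was built into their listing. In spaceflight the leaf and root libraries of RHA1B overlapped.

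The RING-H2 coding stretch of 6 genes is printed here because it carries the feature that names the family, the closest pairs of relatives and the single member with a different spacing. The sequences are from the TAIR10.1 genome of the Columbia accession (NCBI RefSeq), not from the WS plants, in the direction of the gene, with the codons of the zinc-binding cysteines and histidines in capitals.

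ATL75: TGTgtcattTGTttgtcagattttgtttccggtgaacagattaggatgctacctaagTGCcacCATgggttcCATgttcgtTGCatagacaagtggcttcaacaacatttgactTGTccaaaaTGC
ATL77: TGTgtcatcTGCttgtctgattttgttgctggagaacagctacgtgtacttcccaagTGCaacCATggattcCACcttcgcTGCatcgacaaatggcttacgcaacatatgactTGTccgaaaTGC
ATL8: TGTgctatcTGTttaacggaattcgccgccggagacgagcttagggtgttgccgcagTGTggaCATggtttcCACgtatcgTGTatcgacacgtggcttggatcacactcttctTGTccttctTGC
ATL44: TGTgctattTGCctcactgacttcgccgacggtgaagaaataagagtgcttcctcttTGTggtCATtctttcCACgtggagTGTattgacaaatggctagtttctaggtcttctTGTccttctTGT
ATL31: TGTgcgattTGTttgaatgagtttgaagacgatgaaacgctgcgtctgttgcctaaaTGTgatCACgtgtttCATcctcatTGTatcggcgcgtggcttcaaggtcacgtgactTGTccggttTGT
RHA1B: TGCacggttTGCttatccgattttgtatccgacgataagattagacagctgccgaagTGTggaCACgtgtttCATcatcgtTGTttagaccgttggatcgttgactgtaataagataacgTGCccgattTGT

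These stretches lie in the single coding exon of each gene, at chr1:18198703-18198828 on the forward strand for ATL75, chr3:6466691-6466816 on the forward strand for ATL77, chr1:28669224-28669349 on the forward strand for ATL8, chr2:7576769-7576894 on the reverse strand for ATL44, chr5:9684488-9684613 on the forward strand for ATL31 and chr4:6906318-6906449 on the forward strand for RHA1B. In 9 of the 10 proteins the pattern spans 42 residues, encoded by 126 bases, with 10 residues between the last 2 pairs of ligands, whereas RHA1B has 12 residues there and spans 44. ATL56 is the only member with 2 coding exons. The pattern was found in all 10 members, in 259 of 27444 protein-coding genes (0.944%) and in 16 of the 648 listed protein-coding genes (2.47%), the 6 others being RHA4A, AIRP1, AT5G22920, AT3G43430, AT5G55970 and AT5G53110. Over the 45 pairs of members the whole proteins shared 21.5% to 70.5% of the residues of the shorter protein, with a median of 27.4%, and the RING stretches shared 42.9% to 83.3%, with a median of 52.4%. ATL75 and ATL77 were the most alike, with 83.3% identity in the RING, and ATL8 and ATL44 came next, with 48.1% over the protein and 76.2% in the RING.

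**Figure D1:**
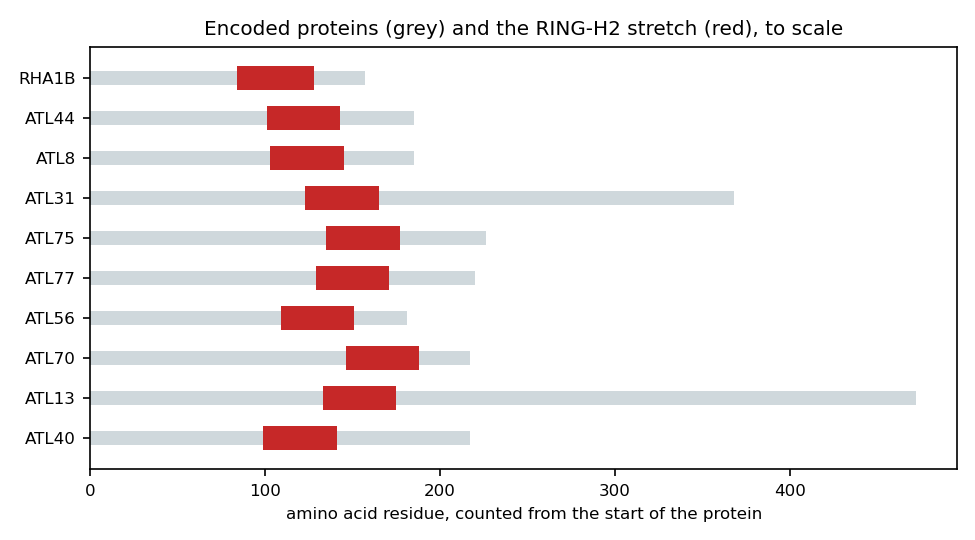
The 10 encoded proteins drawn to scale in amino acid residues (grey bars) with the RING-H2 stretch in red. The stretch begins between residues 85 and 147, and ATL13 (472 residues) and ATL31 (368 residues) carry the longest tails behind it, while RHA1B is the shortest protein at 157 residues.

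Limits of some genes follow from their surroundings. ATL75, at chr1:18198227-18199168, shares 871 bases with AT1G49205 on the opposite strand, and ATL77, at chr3:6465748-6467175, shares 845 bases with AT3G18775 on the opposite strand. The paper names a library kit that keeps strand and the labels a kit that does not, so reads of these genes and of their antisense partners may not have been told apart. ATL56, at chr2:8093220-8094823, shares 210 bases with AT2G18680 on the same strand. The coding sequence of ATL75 is 90.7% identical to AT1G49220 over 644 bases and 89.9% identical to AT1G49210 over 681 bases, and that of RHA1B is 85.8% identical to its neighbour RHA1A over 480 bases, so the division of reads between these copies is uncertain. The other loci are chr1:28668664-28669652 for ATL8, chr4:14866763-14868704 for ATL13, chr2:15072887-15074140 for ATL70, chr5:9683988-9685742 for ATL31, chr2:7576388-7577846 for ATL44, chr2:17639001-17640300 for ATL40 and chr4:6905848-6906856 for RHA1B.

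Levels are in FPKM, the fragments that map to a gene per kilobase of its length, relative to all mapped fragments of the library, as the authors estimated them with RSEM. The tests used only FPKM, so the depth of the libraries is unknown and the spread between plates is the only measure of error. Differences were tested with limma on log2(FPKM + 1), a scale on which changes of genes with low values come out too small, with Benjamini-Hochberg adjustment over all genes of the table concerned. "Rose" and "fell" mean that the adjusted p was under 0.05 and that the change on this scale was at least 2-fold. The tables list genes that the authors had selected in the same libraries for a response of that organ of at least 2-fold, so the tests of leaves, and those of ATL75 and ATL8 in roots, are not independent evidence of a response. The leaf listing did not test root libraries against each other, but root levels entered it through the authors' filter, which kept genes above 5 CPM (reads per gene scaled to the library total) in at least 3 of all libraries. The authors' mean CPM in leaves was under 5 in both environments for ATL40 (0.505 on the ground and 1.21 in spaceflight) and ATL70 (1.96 and 4.44), so these 2 genes passed that filter through their root libraries. For ATL8 (2.80 and 6.28) the means do not show whether its leaf libraries alone met the filter. Bulk libraries cannot tell fewer cells of a type from less RNA per cell.

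**Figure D2:**
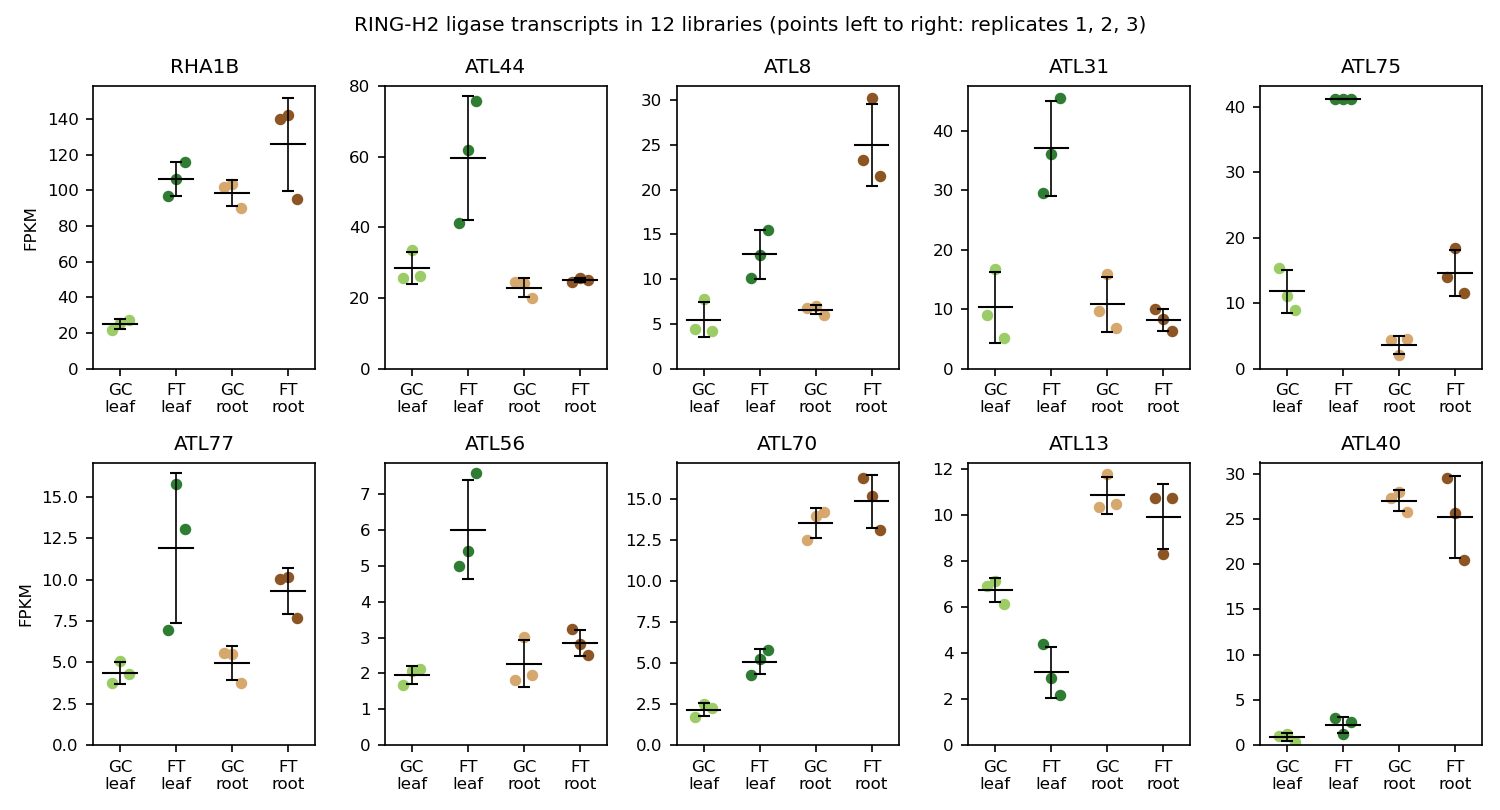
FPKM of each RING-H2 gene in the 12 libraries, on a linear axis from 0 that differs between panels (GC, ground control; FT, spaceflight). Each point is a library, the horizontal line is the group mean and the error bar is ± SD (n = 3). Spaceflight leaves lie above ground control leaves without overlap for 8 genes, below for ATL13, and overlap for ATL40.

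Spaceflight leaves were compared with ground control leaves to describe the size of the differences, since all 10 genes had been listed for a leaf response in these libraries. Of the 10 genes, 7 rose, 0 fell and 3 did not pass, where 58.1% of the 608 leaf-table genes rose and 16.4% fell. The spaceflight libraries lay wholly above the ground control libraries for 8 of the 10 genes, against 68.1% of the leaf table, and wholly below for ATL13, against 23.7% of the table. The median difference of the 10 genes was 1.16 on the log2 scale and that of all 608 genes 1.09.

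RHA1B, a RING-H2 finger protein outside the ATL branch, showed the largest rise. Its FPKM was 21.6, 25.7 and 27.3 in ground control leaf replicates 1, 2 and 3 and 96.8, 106 and 116 in the spaceflight leaf replicates. The groups lay far apart, the lowest spaceflight library being above the highest ground control library by more than the range within either group. The mean rose from 24.9 ± 2.93 to 106 ± 9.59 FPKM (SD, n = 3 each), a 4.27-fold difference, and the limma difference was 2.05 ± 0.28 on the log2 scale (SE, adjusted p = 0.000156).

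ATL31, the carbon and nitrogen response ligase, stood at 9.09, 16.8 and 5.07 FPKM in ground control leaf replicates 1, 2 and 3 and, in the spaceflight leaf replicates, at 29.6, 36.1 and 45.55 FPKM. The ground control libraries were widely spread, with replicate 2 highest, but did not reach the spaceflight libraries. The limma difference was 1.87 ± 0.38 (SE, adjusted p = 0.00157), from a mean of 10.3 ± 5.96 to 37.1 ± 8.02 FPKM (SD, n = 3 each).

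ATL75 had 15.4, 11.1 and 8.95 FPKM in ground control leaf replicates 1, 2 and 3 and 41.2 FPKM in each spaceflight leaf replicate. The groups did not overlap, and the spaceflight libraries had an SD of only 0.026 FPKM. The limma difference was 1.75 ± 0.29 (SE, adjusted p = 0.000513). Its closest relative ATL77 stood at 3.76, 5.08 and 4.31 FPKM on the ground and at 6.96, 15.8 and 13.0 FPKM in spaceflight leaves. All spaceflight values were higher, but replicate 1 lay much closer to the ground control libraries than the other two did. The limma difference was 1.20 ± 0.33 (SE, adjusted p = 0.00591), and without spaceflight leaf replicate 2 it was 0.98 and no longer reached 2-fold.

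ATL44, named RHA3A in RefSeq, and its relative ATL8, a membrane-bound ligase known from sugar starvation, rose less. ATL44 stood at 25.7, 33.7 and 26.3 FPKM in ground control leaf replicates and at 41.2, 62.0 and 76.0 FPKM in spaceflight leaf replicates. The groups did not overlap, and the spaceflight values were spread more widely. The limma difference was 1.01 ± 0.31 (SE, adjusted p = 0.0101), just past 2-fold, and it fell under 2-fold without ground control leaf replicate 1 (0.94) or replicate 3 (0.95) and without spaceflight leaf replicate 2 (0.96) or replicate 3 (0.81). ATL8 stood at 4.38, 7.76 and 4.25 FPKM on the ground and at 10.08, 12.7 and 15.5 FPKM in spaceflight leaves, again without overlap. The limma difference of ATL8 was 1.11 ± 0.32 (SE, adjusted p = 0.00666), and it fell under 2-fold when spaceflight leaf replicate 3 (0.97) or ground control leaf replicate 3 (0.98) was left out. After libraries were rescaled to genes listed only for roots, ATL44 (0.87) and ATL8 (0.99) fell under 2-fold and ATL13 (-1.04) passed it.

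ATL56 stood at 1.68, 2.07 and 2.13 FPKM in ground control leaf replicates and at 5.01, 5.43 and 7.59 FPKM in spaceflight leaf replicates. It was a gene of low level that rose without overlap, by 1.23 ± 0.29 on the log2(FPKM + 1) scale (SE, adjusted p = 0.00283) and 3.07-fold in mean FPKM. ATL70 was similar in level, with 1.73, 2.50 and 2.24 FPKM on the ground and 4.24, 5.23 and 5.78 FPKM in spaceflight leaves. Its groups did not overlap and its means differed 2.36-fold, but the limma difference of 0.95 ± 0.28 (SE, adjusted p = 0.00842) missed 2-fold on the log2(FPKM + 1) scale. ATL40 was nearly silent in leaves, with 1.04, 1.27 and 0.37 FPKM on the ground and 2.98, 1.22 and 2.52 FPKM in spaceflight leaves. Spaceflight replicate 2 lay within the ground control range, and the limma difference was 0.76 ± 0.33 (SE, adjusted p = 0.0414).

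ATL13 was the only gene of the 10 that was lower in spaceflight leaves. It stood at 6.93, 7.14 and 6.15 FPKM in ground control leaf replicates and at 4.39, 2.92 and 2.19 FPKM in spaceflight leaf replicates. The groups did not overlap, and the ground control mean of 6.74 ± 0.52 FPKM compared with a spaceflight mean of 3.17 ± 1.12 FPKM (SD, n = 3 each). The limma difference of -0.93 ± 0.30 (SE, adjusted p = 0.0119) missed 2-fold on the log2(FPKM + 1) scale. With a pseudocount of 0.1 in place of 1, which shrinks low genes less, the differences of ATL13 (-1.12), ATL70 (1.20) and ATL40 (1.29) all passed. Without spaceflight leaf replicate 1, ATL13 (-1.13) and ATL70 (1.05) passed with the pseudocount of 1, ATL70 (1.02) also passed without ground control leaf replicate 2, and ATL40 (1.02) passed without spaceflight leaf replicate 2. The number of the 10 genes called in leaf was between 5 and 9 when single libraries were left out. Of the 608 leaf-table genes, 365 to 474 were called in the same fits.

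FPKM is a level per length of transcript, so the genes can be ordered by it. ATL40 had the lowest mean in leaves of both environments, although in spaceflight its range overlapped that of ATL13, and the order changed at the top. In ground control leaves ATL44 (28.6 ± 4.46 FPKM) and RHA1B (24.9 ± 2.93 FPKM) were highest, with overlapping ranges, followed by ATL75 (11.8 ± 3.29 FPKM) and ATL31 (10.3 ± 5.96 FPKM), which overlapped too (SD, n = 3 each). In spaceflight leaves RHA1B (106 ± 9.59 FPKM) stood above ATL44 (59.8 ± 17.5 FPKM) without overlap, and ATL44, ATL75 (41.2 FPKM) and ATL31 (37.1 ± 8.02 FPKM) followed with overlapping ranges (SD, n = 3 each). The FPKM of the 10 genes together came to 97.2 ± 14.0 in ground control leaves and 286 ± 41.5 in spaceflight leaves (SD, n = 3 each). RHA1B supplied 22.7% to 31.4% of that sum in ground control leaf libraries and 35.6% to 39.9% in spaceflight leaf libraries.

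Spaceflight roots were compared with ground control roots in the same way. In the root table, ATL75 and ATL8 both rose, where 27.7% of the 65 genes rose and 27.7% fell. Over the leaf table, whose listing used root libraries in the filter on low values but not in the test of spaceflight, 1 of the 10 genes rose and 0 fell, where 0.164% of the 608 genes rose and 0% fell. The gene that rose was ATL8, the only one of the 608 that passed, and 27.3% of the 608 genes had an unadjusted p under 0.05, 3 of the 10 RING-H2 genes among them. When genes with a mean under 1 FPKM were left out, 12 genes passed, with ATL8 and ATL75 among them. The spaceflight root libraries lay wholly above the ground control root libraries for 3 of the 10 genes (ATL8, ATL75 and ATL77), against 19.1% of the leaf table, and wholly below for 0, against 11.3%. The median difference of the 10 genes in roots was 0.19 on the log2 scale and that of all 608 genes 0.04.

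ATL8 stood at 6.82, 6.94 and 6.03 FPKM in ground control root replicates and at 23.3, 30.3 and 21.5 FPKM in spaceflight root replicates. The groups were far apart, and ground control roots were nearly uniform. The limma difference over the 608 genes was 1.76 ± 0.14 (SE, adjusted p = 0.00709), and over the 65 root-table genes it was 1.76 ± 0.24 (SE, adjusted p = 0.00381). The first of these calls was lost without ground control root replicate 1 (adjusted p = 0.0839) or replicate 3 (adjusted p = 0.0771), whereas the second held without any single root library.

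ATL75 stood at 4.30, 2.06 and 4.55 FPKM in ground control root replicates and at 14.0, 18.4 and 11.5 FPKM in spaceflight root replicates. The groups did not overlap. The limma difference of 1.78 ± 0.31 (SE, adjusted p = 0.00614) passed over the 65 root-table genes, and the value of 1.78 ± 0.27 (SE, adjusted p = 0.0534) narrowly missed the threshold over the 608 leaf-table genes, where it passed without spaceflight root replicate 3 (adjusted p = 0.0274) or in a fit of all 12 libraries (adjusted p = 0.00316). ATL77, its closest relative, stood at 5.58, 5.53 and 3.77 FPKM in ground control roots, compared with 10.0, 10.2 and 7.70 FPKM in spaceflight roots. It too had groups that did not overlap, with a difference of 0.80 ± 0.17 (SE, adjusted p = 0.0573) that did not pass.

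Some leaf markers also stood higher in spaceflight roots, and these values go beside the root results. Of 22 fixed leaf marker genes of photosynthesis 3 are listed, all light-harvesting genes and all in the root table only. They were thus selected for a root response in these libraries, and the other markers have no values here. LHCB1.2 and LHCB2.2 rose in roots while LHCB4.2 (difference 0.97, adjusted p = 0.0212) did not pass. When spaceflight root replicate 2 was left out, 0 of these 3 passed, and 1 passed when replicate 3 of the ground control roots was left out. Their summed level was 102 to 111 FPKM in ground control root libraries, 144 to 344 FPKM in spaceflight root libraries and 6221 to 14152 FPKM in spaceflight leaf libraries, so that spaceflight roots held 2.10% of the summed level of spaceflight leaves. For ATL75 spaceflight roots held 35.5% of the level of spaceflight leaves, for ATL77 78.0% and for ATL8 196%. The rise of the leaf markers in roots was 1.15% of their level in spaceflight leaves, and that of ATL75 was 26.7% of its level there.

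The other 7 genes did not pass in roots. RHA1B stood at 102, 103 and 90.2 FPKM in ground control root replicates and at 140, 142 and 95.4 FPKM in spaceflight root replicates. Spaceflight replicates 1 and 2 were above all ground control libraries and replicate 3 was among them, with a difference of 0.33 (95% interval -0.09 to 0.75, adjusted p = 0.283). ATL31 stood at 9.69, 15.95 and 6.90 FPKM in ground control roots, compared with 10.0, 8.30 and 6.29 FPKM in spaceflight roots, with replicate 2 highest on the ground as in leaves. Its difference was -0.31 (95% interval -1.03 to 0.41, adjusted p = 0.568). ATL44 hardly varied, with 24.65, 24.2 and 19.9 FPKM in ground control roots, 24.4, 25.7 and 25.2 FPKM in spaceflight roots and a difference of 0.13 (95% interval -0.13 to 0.39, adjusted p = 0.51).

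ATL40 stood at 27.35, 28.0 and 25.7 FPKM in ground control root replicates and at 29.6, 25.6 and 20.5 FPKM in spaceflight root replicates, which overlap. ATL70 stood at 12.5, 14.0 and 14.2 FPKM in ground control roots, compared with 16.3, 15.2 and 13.1 FPKM in spaceflight roots, which overlap as well. ATL13 stood at 10.4, 11.8 and 10.5 FPKM in ground control roots, compared with 10.8, 8.32 and 10.8 FPKM in spaceflight roots, again overlapping. ATL56 had the lowest mean of the family in roots, with a range that overlapped that of ATL75 on the ground, and stood at 1.82, 3.02 and 1.96 FPKM without and at 3.24, 2.81 and 2.50 FPKM with spaceflight, where a single ground control library reached into the spaceflight range. The differences of these 4 genes were between -0.12 (ATL13) and 0.25 (ATL56), with adjusted p from 0.375 to 0.672. The summed FPKM of the 10 genes was 201 ± 15.9 in ground control roots and 261 ± 40.3 in spaceflight roots (SD, n = 3 each), with overlapping ranges, and RHA1B supplied 44.5% to 49.6% of it in the 6 root libraries.

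In ground control roots RHA1B (98.4 ± 7.13 FPKM), ATL40 (27.0 ± 1.18 FPKM) and ATL44 (22.9 ± 2.63 FPKM) were highest and did not overlap with each other (SD, n = 3 each). In spaceflight roots ATL8 (25.0 ± 4.62 FPKM) stood level with ATL40 (25.2 ± 4.56 FPKM) and ATL44 (25.1 ± 0.61 FPKM), and the ranges of these 3 genes overlapped (SD, n = 3 each). On the ground ATL8 had stood below ATL13, ATL70 and ATL44 in every root library.

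**Figure D3:**
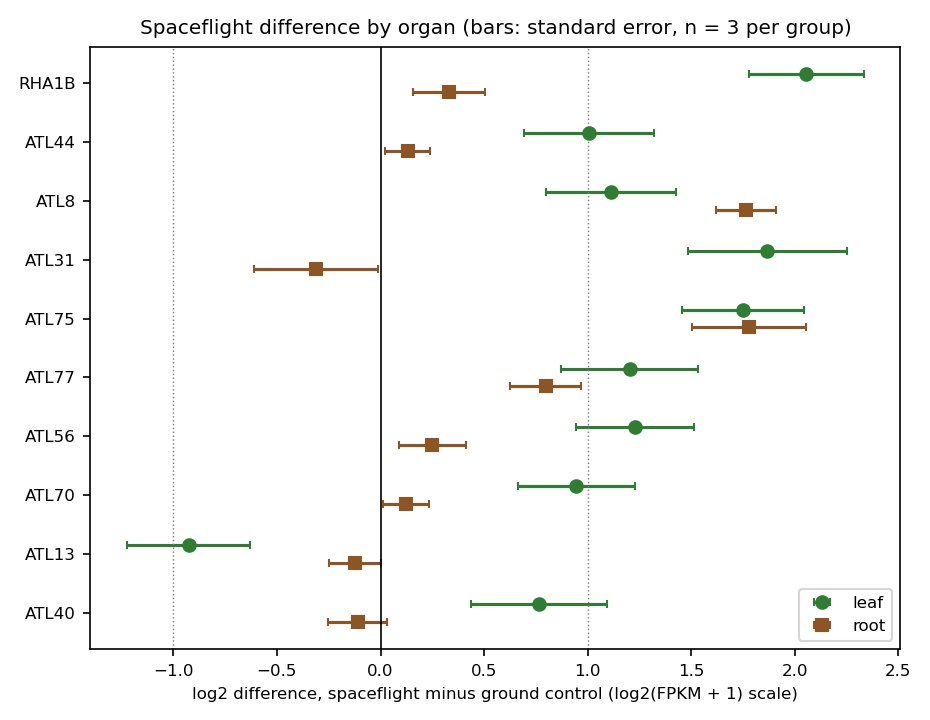
Spaceflight minus ground control difference of each gene in leaf (green circles) and root (brown squares) on the log2(FPKM + 1) scale, with SE bars (n = 3 per group) and dotted lines at a 2-fold change. Leaf and root points coincide for ATL75, the root point is the higher one for ATL8, and for RHA1B and ATL31 the leaf point is higher by 1.72 and 2.18.

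The difference of the spaceflight response between organs was tested directly over the 656 listed genes, as the leaf response minus the root response. It was positive with an adjusted p under 0.05 for 6 of the 10 genes and negative for 1, where 54.1% and 19.4% of the 656 genes were, and its median was 0.85 in the family and 0.91 over all genes. Since the leaf listing chose genes for a leaf response, a larger response in leaf was favoured by the choice. ATL31 (2.18 ± 0.51, adjusted p = 0.00418) and RHA1B (1.72 ± 0.28, adjusted p = 0.000571) differed most, with SE after the sign. ATL56 (0.98, adjusted p = 0.0118), ATL70 (0.82, adjusted p = 0.015), ATL44 (0.88, adjusted p = 0.0268) and ATL40 (0.88, adjusted p = 0.0431) also had a higher response in leaf than in root, and ATL13 (-0.80, adjusted p = 0.0291) a lower one.

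The calls of ATL13, ATL44 and ATL40 were each lost in several fits that left out a library, with adjusted p up to 0.106 for ATL40 without ground control leaf replicate 3. The number of the 10 genes called fell to 4 without spaceflight leaf replicate 3 or ground control root replicate 1. Of the 656 genes, 424 and 406 were called in these fits, in that order. The calls of RHA1B, ATL31, ATL56 and ATL70 held without any single library. For ATL75 the difference between organs was -0.03 (95% interval -0.83 to 0.78), for ATL77 0.41 (95% interval -0.40 to 1.21) and for ATL8 -0.65 (95% interval -1.38 to 0.07, adjusted p = 0.0897). These intervals are wide and do not show that both organs responded alike.

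Leaves and roots were also compared within each environment. On the ground, 1 of the 10 genes was higher in leaf and 3 were higher in root, where 24.2% of the 656 listed genes were higher in leaf and 45.1% higher in root. ATL75 was the gene higher in leaf, at 11.8 ± 3.29 FPKM in leaves and 3.64 ± 1.37 FPKM in roots (SD, n = 3 each), with a leaf minus root difference of 1.49 ± 0.26 (SE, adjusted p = 0.000123). ATL40 and ATL70 had entered the tables through their root libraries and so had to be higher there, and their organ differences are given as descriptions. ATL40 had the largest ratio of root to leaf means, with 0.893 ± 0.467 FPKM in leaves and 27.0 ± 1.18 FPKM in roots (SD, n = 3 each), a ratio of 30.3, and a difference of -3.92 ± 0.26 (SE). ATL70 was 6.28-fold more abundant in roots (difference -2.21 ± 0.19, SE), and RHA1B, to which that limit does not apply, was 3.95-fold more abundant there (-1.94 ± 0.20, SE, adjusted p = 4.82e-07). ATL13 was 1.61-fold higher in roots without overlap, but its difference of -0.62 (adjusted p = 0.0149) stayed under 2-fold. ATL56, ATL77, ATL31, ATL44 and ATL8 did not pass, with differences between -0.27 and 0.30.

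In spaceflight, 3 of the 10 genes were higher in leaf and 3 higher in root, where 34% of the 656 genes were higher in leaf and 33.8% higher in root. ATL75 (1.46 ± 0.26, adjusted p = 0.000154) was again higher in leaf, and ATL31 (2.05 ± 0.36, adjusted p = 0.000125) and ATL44 (1.18 ± 0.23, adjusted p = 0.000252) joined it (SE after the sign). The leaf listing chose genes for a response in these same spaceflight leaf libraries. Shifts of the organ difference from the ground were favoured by that choice, so the organ calls in flight are not independent evidence. On the ground ATL31 had stood at 10.3 ± 5.96 FPKM in leaf and 10.8 ± 4.63 FPKM in root, and in flight it stood at 37.1 ± 8.02 FPKM in leaf and 8.21 ± 1.88 FPKM in root (SD, n = 3 each). ATL13 (-1.42, adjusted p = 2.36e-05) was higher in root, as were ATL40 (-3.04) and ATL70 (-1.39), again as descriptions, and ATL13 was 3.14-fold more abundant there. ATL56 (0.85, adjusted p = 0.00173) and ATL8 (-0.92, adjusted p = 0.00264) differed by less than 2-fold on this scale, and ATL8, with 12.8 ± 2.71 FPKM in leaves and 25.0 ± 4.62 FPKM in roots (SD, n = 3 each), passed without spaceflight leaf replicate 3 (-1.06) or spaceflight root replicate 3 (-1.02). Without spaceflight leaf replicate 3 the difference of ATL44 was 0.98 and missed 2-fold.

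RHA1B, higher in roots on the ground, did not pass in either direction in spaceflight. Its leaf libraries (96.8 to 116 FPKM) and root libraries (95.4 to 142 FPKM) overlapped, and the leaf minus root difference was -0.22 (95% interval -0.65 to 0.21, adjusted p = 0.321). The interval leaves out the ground control difference of -1.94, and the choice of genes for a leaf response favoured such a shift.

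**Figure D4:**
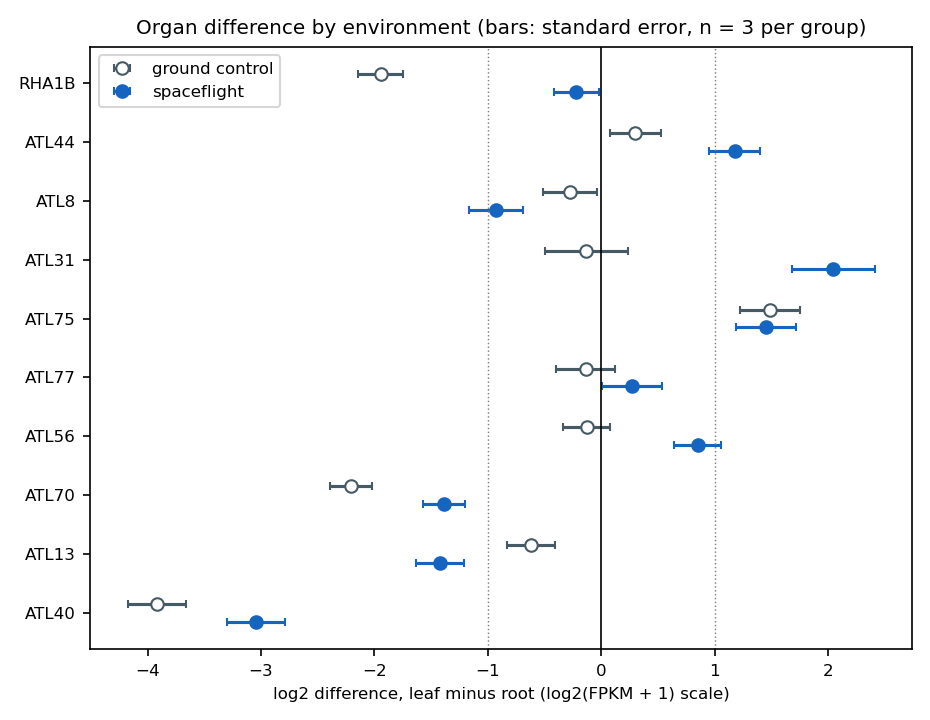
Leaf minus root difference of each gene in ground control (open circles) and spaceflight (filled circles) on the log2(FPKM + 1) scale, with SE bars (n = 3 per group) and dotted lines at a 2-fold difference. RHA1B moved from -1.94 to -0.22 and ATL31 from -0.13 to 2.05, while ATL75 stayed at 1.49 and 1.46.

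The replicates that stood highest or lowest for most of the 10 genes mostly did so over the leaf table too. In leaves, ground control replicate 2 was the highest of its group for 7 of the 10 genes (42.8% of the table), spaceflight replicate 3 was the highest for 6 (61.2%) and spaceflight replicate 1 the lowest for 8 (54.1%). In roots, ground control replicate 2 was the highest for 6 (52.6%) and spaceflight replicate 3 the lowest for 8 (54.9%). No test was run on these counts. ATL31 varied most between ground control plates, with a coefficient of variation of 57.7% in leaves and 42.7% in roots, and replicate 2 was highest in both. ATL44 in spaceflight roots (2.45%) and ATL40 in ground control roots (4.37%) varied little.

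The genes whose level over the 12 libraries was most like that of each RING-H2 gene were found by Pearson correlation of log2(FPKM + 1) among the other listed genes, as a description only, since the libraries share 2 organs and 2 environments. ATL75 was closest to ERF107 (r = 0.933), an ethylene response factor, AT5G25280 (r = 0.915) and OXS3 (r = 0.899), a gene named for oxidative stress. ATL8 was closest to AT1G14890 (r = 0.914), which stood at 24.8 FPKM in ground control roots and 55.7 FPKM in spaceflight roots, to AT3G43430 (r = 0.842), another RING-H2 gene, and to AT1G76590 (r = 0.831). ATL44 was closest to NAC055 (r = 0.990), a NAC transcription factor with a mean of 1.60 FPKM for leaves on the ground and 19.4 FPKM for leaves in flight. ATL31 was closest to AT1G25400 (r = 0.984), ATL77 to ATCTH (r = 0.981), RHA1B to AT3G52480 (r = 0.976) and ATL56 to AT1G74440 (r = 0.968). ATL13 was closest to BAG6 (r = 0.973), a BAG-domain cochaperone with a mean of 5.30 FPKM for ground control leaves and 2.41 FPKM for spaceflight leaves. The root-enriched genes ATL70 and ATL40 were closest to the kinase gene CIPK21 (r = 0.996) and to AtMYB45 (r = 0.993).

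The counts of other ubiquitin ligase genes in the leaf table are to be read beside the 58.1% of all 608 genes that rose and the 16.4% that fell, and they carry the same limit of selection on these libraries. Of the 8 further genes annotated with a RING finger, 5 rose, 0 fell and 3 (RHA4A, AIRP1 and AT5G53110) did not pass, whereas all 8 rose with a pseudocount of 0.1, as did 436 of the 608 genes. AT5G22920 went from 25.3 ± 10.4 to 129 ± 49.9 FPKM (SD, n = 3 each, adjusted p = 0.000416), and the membrane-anchored RING ligases RMA1 (difference 1.78) and RMA2 (difference 1.58) also rose. Of these 8, 5 are annotated as RING/U-box proteins, and 2 of the 5 (AT3G43430 and AT5G55970) rose. Of 30 other RING-H2 genes fixed by locus 2 were listed, AIRP1 and AT5G53110, and neither passed. RHA4A, AT5G22920, AT3G43430 and AT5G55970 also hold the RING-H2 pattern and are in the leaf table, but were not among those 30. Of these, RHA4A did not pass, whereas AT5G22920, AT3G43430 and AT5G55970 rose. Of 7 F-box genes, which supply the target-binding subunit of SCF ligases, 6 rose and AT1G78100 fell, from 52.9 ± 7.04 to 21.1 ± 2.25 FPKM (SD, n = 3 each).

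Of 4 genes annotated with a BTB domain, found in adaptors of cullin ligases, 3 rose, BT2 from 5.20 ± 2.53 to 134 ± 78.1 FPKM, BT5 and BT1, and AT2G24240 did not pass. PUB24, a U-box ligase, was the 1 listed gene of 11 fixed U-box genes and rose by 1.12 on the log2 scale, but 0 of this list rose without ground control leaf replicate 3 or without spaceflight leaf replicate 3. PUB24, counted again here, and SIS were the 2 genes found by the word ubiquitin in their annotation, and both rose. SIS was found by that word only, which does not show that it encodes a ligase. Of 16 genes fixed as known partners of ATL31, among them 14-3-3 proteins and its relative ATL6, 0 are in the tables. Of 13 sugar starvation genes 9 were listed in leaf, and 8 rose, among them DYL1 from 22.6 ± 13.2 to 110 ± 21.4 FPKM (SD, n = 3 each), while ASN1 (0.84, adjusted p = 0.0834) did not pass. Of 26 rapid stress genes 2 were listed in leaf and 1 in root, and the rest have no values here. CML12 rose in leaf by 1.05, DREB2A (-0.95, adjusted p = 0.0229) missed 2-fold in leaf, and DREB2A fell in root by 1.22 (adjusted p = 0.0161). In leaf 0 genes of this list rose without replicate 3 of either group, without ground control replicate 1 or after rescaling, and 1 fell under the latter pair of alternatives, with a pseudocount of 0.1 and without spaceflight replicate 1. The call of DREB2A in root was lost without replicate 2 of either root group.

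The 250 bases before each annotated gene start were searched on both strands for short motifs. TTATCC, the core of a sugar-repressible element, was present for ATL75, ATL56, ATL13 and ATL44, that is 4 of 10 genes, and in 12.5% of 27443 promoters and 15.9% of the 648 listed ones. The 4 windows are shown because these genes include 3 that rose in spaceflight leaves and ATL13, the one that was lower. Each window is 60 bases of TAIR10.1 in the direction of the gene, with the element in capitals, which in ATL75 lies on the opposite strand and reads as its complement.

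ATL75: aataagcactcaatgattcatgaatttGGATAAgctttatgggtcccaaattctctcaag
ATL56: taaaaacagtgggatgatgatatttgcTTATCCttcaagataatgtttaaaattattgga
ATL13: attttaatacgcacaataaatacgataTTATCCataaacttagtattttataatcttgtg
ATL44: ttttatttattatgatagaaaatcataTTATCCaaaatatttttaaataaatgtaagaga

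The windows lie at chr1:18198024-18198083 for ATL75, chr2:8093011-8093070 for ATL56, chr4:14866497-14866556 for ATL13 and chr2:7578008-7578067, on the reverse strand, for ATL44. TATCCA, which overlaps TTATCC by 5 bases where both occur, was present for 4 of 10 genes (ATL75, ATL13, ATL44 and RHA1B) and in 13.6% of all and 19.9% of listed promoters. The W-box core TTGAC was present for 6 of 10 genes and in 44.9% of all and 50.5% of listed promoters, and the ABRE core ACGTG for 3 of 10 and in 22.9% and 29.5%. GAANNTTC, the heat shock element, was present for ATL56 and ATL31 and in 9.55% of all and 13.1% of listed promoters. The G-box CACGTG was present for ATL31 (6.49% of all and 8.18% of listed promoters) and the evening element core AAATATCT for ATL56 (4.79% and 8.02%). The GCC box GCCGCC (1.87% of all and 2.78% of listed promoters) and the CAMTA core CGCGT (6.87% and 6.94%) were in none of these 10 windows. A match is a run of letters in the reference genome and no measurement of binding.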

How the data were processed

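RNA-seq was analysed from 12 libraries in 4 groups of 3, grouped by sample title. Per the paper and the submitters' processing notes, the authors used FastQC, Trimmomatic, STAR with TAIR10, RSEM and edgeR (versions not given in the sources used). The deposited values are the authors' FPKM per library for genes past their selection (CPM above 5 in at least 3 of all libraries, FDR under 0.05, at least 2-fold). The paper reports more such genes in each organ than the 608 leaf and 65 root genes listed here, and the reason is not known. The unit of these columns is unnamed and was inferred: the ratio of the authors' deposited mean CPM to the group mean rose with gene length (Spearman's rho 0.761 to 0.794). The authors' fold changes, p-values and FDR were not used.

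log2(FPKM + 1) was compared with limma 3.58.1 in R 4.3.3, in the 6 libraries of an organ or, for organ differences, in all 12, and the fits were tested on simulated data. Each group had 3 plates. Leaf and root libraries came from the same plates per the paper, but the labels do not say that equal numbers are 1 plate, and same-numbered libraries did not deviate together in every pair (correlations of -0.0179 to 0.450). The organ fits therefore treat the 12 libraries as independent, and a block on the plate of that number within its environment changed no organ call of the 10 genes. The alternatives were a pseudocount of 0.1, a mean FPKM of at least 1, a replicate block, rescaled libraries, a fit of all libraries, a variance trend and leaving out each library. Coordinates and sequences are from TAIR10.1, which matched 654 of 656 identifiers. Python 3.11.15, Biopython 1.88 and BLAST 2.17.0 were used for sequences.

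Named are all 10 members, for each the most correlated listed gene (3 for ATL75 and ATL8), up to 3 genes of smallest adjusted p per list, and genes outside that rule where a count needed them, chosen after their values were seen. The lists were other RING-H2, U-box, ATL31 partner, sugar starvation, rapid stress and leaf marker genes by locus, and RING, U-box, F-box, BTB and ubiquitin by annotation words. Members and lists were chosen with earlier results of these data known.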

Additional observations from a re-analysis of the deposited data

Results flagged for a closer look

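The spaceflight response differed between leaf and root, as the leaf response minus the root response on the log2(FPKM + 1) scale (limma, adjusted p under 0.05 over 656 genes), for 7 genes: RHA1B by 1.72, ATL31 by 2.18, ATL56 by 0.98, ATL70 by 0.82, ATL44 by 0.88, ATL40 by 0.88 and ATL13 by -0.80. At the same threshold 54.1% of the 656 genes had a positive difference and 19.4% a negative one, so such calls were common and not particular to this family. The 7 named genes had been listed for a response in leaf, and the groups of 3 libraries were too small to screen for single outlying samples.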

How the results depend on the processing

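Of 768 single-gene results under an alternative, 705 kept their direction and their side of the threshold, 40 lost and 16 gained a call, and 7 changed sign. Those 7 were ATL40 in roots without spaceflight root replicate 3 (0.026), the ground organ difference of ATL31 without ground control leaf replicate 3 (0.25) or ground control root replicate 2 (0.16) and of ATL56 without ground control root replicate 2 (0.032), and the difference between organs of ATL75 without ground control leaf replicate 1 (0.16), ground control root replicate 2 (0.25) or spaceflight root replicate 2 (0.14). None of these had passed. Without single libraries the 4 values ranged from -0.23 to 0.026, from -0.53 to 0.25, from -0.22 to 0.032 and from -0.20 to 0.25.

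In leaves 7 of the 10 genes passed, 10 with a pseudocount of 0.1 (9 higher, 1 lower), 6 after rescaling (5 higher, 1 lower, with ATL8 at 0.99, ATL44 at 0.87 and ATL13 at -1.04), and 5 to 9 without single libraries. The whole leaf table moved likewise: of its 608 genes 453 passed, 565 with that pseudocount, 422 after rescaling and 365 to 474 without single libraries. Rescaling lowered the median of all leaf differences by 0.12. In roots, over the leaf table, 1 gene passed, 2 with a mean FPKM of at least 1, in a fit of all 12 libraries or after rescaling, and 0 to 2 without single libraries. Of all 608 genes 1 passed there, 12 with that filter, 6 in the fit of all 12 libraries, 10 after rescaling (4 higher, 6 lower) and 0 to 21 without single libraries. Of the 65 genes of the root table, 36 passed, 57 (37 higher, 20 lower) with a pseudocount of 0.1 and 18 to 41 without single libraries. The 2 genes of the root table both passed in leaves when adjusted over that table, and 1 did after rescaling, with 1 to 2 without single libraries, where all genes passing went down to 4. The difference between organs passed for 4 to 7 of the 10 genes without single libraries, and for 396 to 526 of all 656 genes.

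The replicate block was the plate of that number within its environment for organ differences. For spaceflight differences within an organ it was the replicate number, which pairs ground and flight plates that the design does not pair. Under these blocks 53 of 54 single-gene results kept their side. The exception was ATL8 in leaves adjusted over the root table (adjusted p = 0.0942), which left 1 gene there, and 4 of the 608 genes passed in roots under the block (1 higher, 3 lower). The cause of these shifts was not tested.

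Depth per library is unknown, and with 3 plates a group only differences well above the plate spread can be seen.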
